A study of Homo sapiens with 4 samples.

Results

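The SLC25 genes encode the mitochondrial carrier family, the proteins that move metabolites, nucleotides, phosphate and metal ions through the inner membrane of the mitochondrion. The genes were taken by name, as every row whose symbol is SLC25A followed by a number, and 47 of the 17630 genes analysed met that rule. They were read in 4 RNA sequencing libraries from H1, an established human embryonic stem cell line. Library hESC holds undifferentiated H1 cells. Library MES holds APLNR+ cells of mesoderm stage, sorted after 2 days of differentiation. HEP denotes the CD31+CD34+ fraction of day 4, and HPC the CD31+CD43+ fraction of day 7. Values given 4 at a time are in this library order: hESC, MES, HEP, HPC. Differentiation began with activin A at 40 ng/ml and BMP4 at 50 ng/ml for 2 days. VEGF at 40 ng/ml and bFGF at 50 ng/ml followed for 2 days, and the same pair with the activin and NODAL receptor inhibitor SB-431542 for the last 3 days. MES cells had thus met only the first pair of factors, and HEP cells the first and the second. No sort is stated for the hESC library, and no genetic change is stated for any group. All groups come from a single cell line, so nothing here shows how other lines behave.

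A carrier of this family is built from a repeat of paired membrane-spanning helices and opens in turn to the cytosol and to the matrix. The best known members exchange ADP for ATP and bring in the phosphate from which ATP is made. Others supply the malate-aspartate shuttle, export citrate for lipid synthesis, or bring in iron and glycine, the raw materials of heme. Heme is made in quantity by developing red cells, where the iron carrier mitoferrin-1 (SLC25A37) and the glycine carrier SLC25A38 are known to be needed. Red cells themselves later lose their mitochondria.

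With 1 library for each group there is no replicate error, no p-value, and no replicate check of any difference below. Values were deposited as a normalised signal, whose sums over all genes ranged from 306724 (HEP) to 426980 (hESC), and the depth behind them is unknown. In bulk RNA, fewer cells of a type and less RNA per cell cannot be told apart. Markers of the stages stood as follows: POU5F1 went from 1582 in hESC to 15.4 in HPC, APLNR stood at 344 in MES and still at 249.8 in HEP, CDH5 at 73.5 in HEP and SPN (CD43) at 24.4 in HPC, while PECAM1 (CD31) was at only 1.83 in HEP and 7.49 in HPC. Of 4 listed mesoderm markers, 3 were higher in MES than in hESC by the rule of size explained below, against 3.79% of all genes. They were APLNR, MIXL1 (0.04 to 57.15) and MESP1 (0.12 to 65.9), while T (0.03 to 3.71) had no call. Of 4 listed markers of definitive endoderm, 3 were likewise higher in MES than in hESC. The fourth, FOXA2, stayed low, at 0.01, 0.23, 0.65 and 0.18 in library order. The summed value of the 4 was 2.20, 2800, 36.8 and 4.12, and none was at 0. Nearly all of the sum in MES was CER1 (2761), while SOX17 was at 25.1 in MES and 26.9 in HEP, and GATA4 at 13.4 in MES. The HPC library also held red cell and platelet lineage RNA. The summed value of 9 erythroid markers was 5.41, 7.79, 22.7 and 2745 from hESC to HPC, and that of 5 megakaryocyte markers 2.77, 1.30, 5.76 and 331. Most of the megakaryocyte sum in HPC was ITGA2B (283), while PF4 was at 30.3, GP9 at 8.81, GP1BA at 7.56 and PPBP at 0.69. Of 5 listed early blood markers, 3 were higher in HPC than in HEP by the same rule, against 3.01% of all genes. They were SPN, GFI1B (7.28 to 21.0) and MYB (2.20 to 17.7). RUNX1 (2.83 to 2.43) had no call, and the pan-leukocyte gene PTPRC stayed at or below 0.04 in all 4 libraries. The part of cell composition in the carrier values was not tested.

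A few carriers held most of the family's signal. The summed value of the 47 genes was 950, 846, 829 and 1066 in library order. The phosphate carrier SLC25A3 and the ADP/ATP carriers SLC25A5 and SLC25A6 made up 57.9%, 53.3%, 62.0% and 72.6% of it in library order. These shares do not depend on how the libraries are scaled to each other. With the trend with transcript GC content removed (described with the comparison of MES and HEP) they were 56.4%, 53.7%, 63.6% and 72.6%. The sum of the other 44 genes was 400, 395, 315 and 292 in library order, but 317, 330, 391 and 355 with median-of-ratios scaling. The sum of the 3 leading genes was 550 in hESC and 773 in HPC, and it was the higher in HPC with each of the 4 other scalings too.

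**Figure D1:**
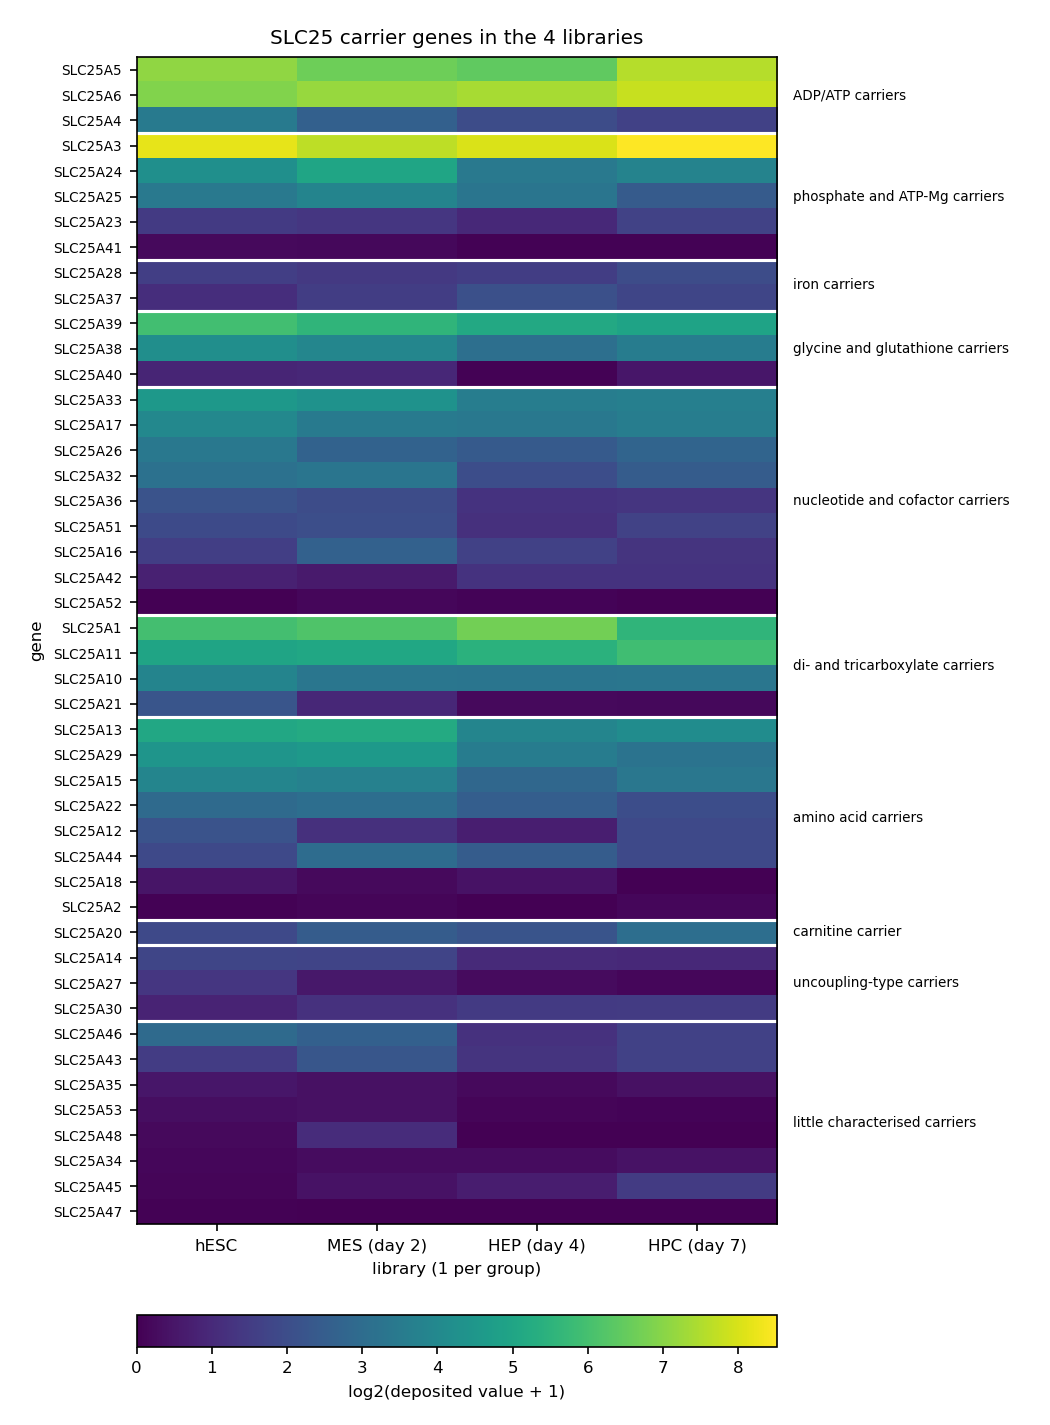
Expression of 46 of the SLC25 genes. Columns are the 4 libraries, rows are genes grouped by what they carry and ordered by their value in hESC, and colour is log2 of the deposited value plus 1. SLC25A3 is the brightest row in every library, and SLC25A5 and SLC25A6 come next in hESC, MES and HPC, and 9 genes stay below 1 in all of them.

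Levels of different genes are compared here on the deposited scale, which RSEM, the tool named by the submitters, gives per transcript length in either of its normalised forms. On that scale the number of the 47 genes with a value of at least 5 was 21, 22, 15 and 17 in library order, that is 44.7%, 46.8%, 31.9% and 36.2% of the family against 37.7%, 37.7%, 29.4% and 29.8% of all genes. Of the 47, 24 reached 5 in any library, 14 peaked between 1 and 5, and 9 stayed below 1 throughout: SLC25A2, SLC25A18, SLC25A34, SLC25A35, SLC25A40, SLC25A41, SLC25A47, SLC25A52 and SLC25A53. SLC25A31, the ADP/ATP carrier known from sperm, was not analysed here. Low values need care, because VDAC1, an outer membrane porin that most cells use, was itself listed at 0.35, 0.77, 0.57 and 1.64 from hESC to HPC, while VDAC2 stood at 119.6, 140.9, 70.9 and 103.

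The ADP/ATP carriers parted. SLC25A4, the form known from heart and skeletal muscle, stood at 10.3, 5.16, 2.94 and 2.15 in library order, each lower than the one before, although with the GC trend removed HEP (4.29) lay just above MES (4.19). SLC25A5, the form known from dividing cells, stood at 136.7, 99.2, 85.7 and 189.4 in the same order, with the highest value in HPC. Its lowest value was in HEP as deposited, but HEP lay above MES under all 4 other scalings (log2 difference between 0.03 and 0.36). SLC25A6, the form found in most tissues, stood at 119.0, 146.7, 166.6 and 219.3, each library above the one before, although with the GC trend removed HEP (132) lay below MES (167). By the rule of size explained below, SLC25A4 was lower in HPC than in hESC (log2 difference -1.84, and between -1.60 and -1.13 under the other scalings), and SLC25A5 was higher in HPC than in HEP (1.13, or 0.94 and short of the rule with libraries rescaled to a common total). SLC25A6 did not pass as deposited (0.88 from hESC to HPC) but passed with median-of-ratios scaling (1.49), upper quartile scaling (1.44) and a common total (1.15).

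Within the summed value of these 3 genes, SLC25A4 made up 3.88%, 2.06%, 1.15% and 0.523% in library order. SLC25A5 made up 51.4%, 39.5%, 33.6% and 46.1%, and SLC25A6 44.7%, 58.4%, 65.3% and 53.4%. SLC25A5 was thus the leading ADP/ATP carrier in hESC alone and SLC25A6 in the other 3 libraries. That order in hESC turned with the GC trend removed, where SLC25A5 made up 43.4% and SLC25A6 53.8%, and the share of SLC25A4 was then 2.84%, 1.60%, 1.79% and 0.618%. The sum of the 3 genes was 266, 251, 255 and 411, highest in HPC, as it also was under the 4 other scalings. Their coding sequences are alike, at 77.3% identical bases between SLC25A4 and SLC25A5, 77.9% between SLC25A4 and SLC25A6 and 78.8% between SLC25A5 and SLC25A6 over 897 bases, but no run of identical bases was longer than 29. In GENCODE 29, 9 pseudogenes are named after SLC25A5 and 6 after SLC25A6, so reads could be shared with these copies, and the noncoding SLC25A5-AS1 overlaps exons of SLC25A5 on the other strand.

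The promoters of the 3 genes are shown because these genes encode closely related proteins while their RNA parted. Each is the 250 bases before the start of the gene, 5′ to 3′, from RefSeq on GRCh38.p14: chr4:185143016-185143265 on the plus strand for SLC25A4, chrX:119468194-119468443 on the plus strand for SLC25A5, and chrX:1392114-1392363 on the minus strand for SLC25A6, which lies in the region shared by both sex chromosomes. Capitals mark the TATAA and CCAAT motifs and the AGATAA motif.
SLC25A4: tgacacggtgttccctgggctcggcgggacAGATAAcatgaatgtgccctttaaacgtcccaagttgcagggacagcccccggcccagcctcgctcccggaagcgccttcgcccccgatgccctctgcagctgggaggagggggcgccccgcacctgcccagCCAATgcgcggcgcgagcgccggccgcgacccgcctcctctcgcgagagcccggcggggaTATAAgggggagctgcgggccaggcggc
SLC25A5: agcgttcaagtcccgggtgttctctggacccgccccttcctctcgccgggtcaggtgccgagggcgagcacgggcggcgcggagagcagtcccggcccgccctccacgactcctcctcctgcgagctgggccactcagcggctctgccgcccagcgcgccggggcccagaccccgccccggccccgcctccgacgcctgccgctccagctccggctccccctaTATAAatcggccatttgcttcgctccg
SLC25A6: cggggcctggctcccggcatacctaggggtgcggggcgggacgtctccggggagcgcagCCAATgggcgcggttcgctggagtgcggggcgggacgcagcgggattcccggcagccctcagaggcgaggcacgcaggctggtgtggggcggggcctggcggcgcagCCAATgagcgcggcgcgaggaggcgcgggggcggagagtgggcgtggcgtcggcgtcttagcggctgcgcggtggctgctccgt

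All 3 windows are rich in G and C (71.6% for SLC25A4, 73.6% for SLC25A5 and 76.8% for SLC25A6). TATAA, the core of the TATA box, begins 28 bases before the start of SLC25A4 and 27 bases before that of SLC25A5, and was not found in the window of SLC25A6. CCAAT begins 88 bases before the start of SLC25A4 and 191 and 84 bases before that of SLC25A6. AGATAA, a form of the site of GATA factors, begins 220 bases before the start of SLC25A4. Both strands were searched, no marked matches overlap, and TATAA and CCAAT were added to the search after these windows had been read. Of the 39 SLC25 genes with a window in the RefSeq table, taking the first window of each gene, 5 held TATAA (12.8%, against 19.6% of 27305 genes), 18 CCAAT (46.2% against 33.0%) and 2 AGATAA (5.13% against 9.37%). The site letters CCGGAAGT of ETS factors were in 3 (7.69% against 3.64%). AAGATGGCG (YY1) and TCAAGGTCA (ERR) were in 0 of the 39, against 0.641% and 0.319% of the 27305 genes. Those 27305 are every gene with a window in the RefSeq table, a wider set than the 17630 genes analysed here, so the shares are a rough background only. A match is a run of letters and no evidence of binding.

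The phosphate carrier SLC25A3 had the highest value of the family in every library, at 294, 204, 262 and 365 in library order. Its lowest value was in MES and its highest in HPC, and no difference passed the rule as deposited. The ATP-Mg carriers, which exchange ATP-Mg for phosphate under the control of calcium, were lower and differed among themselves. SLC25A24 stood at 17.9, 31.0, 9.75 and 12.9, highest in MES as deposited but in HEP with the GC trend removed (18.2 in MES, 21.9 in HEP). SLC25A25 stood at 9.81, 13.3, 8.97 and 4.39, also highest in MES as deposited, but with median-of-ratios scaling HEP lay just above MES (log2 difference 0.01). SLC25A25 was lower in HPC than in hESC by a log2 difference of -1.004, a call lost with 3 of the 4 other scalings (-0.47 with median-of-ratios). SLC25A23 stayed between 0.97 and 2.20.

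**Figure D2:**
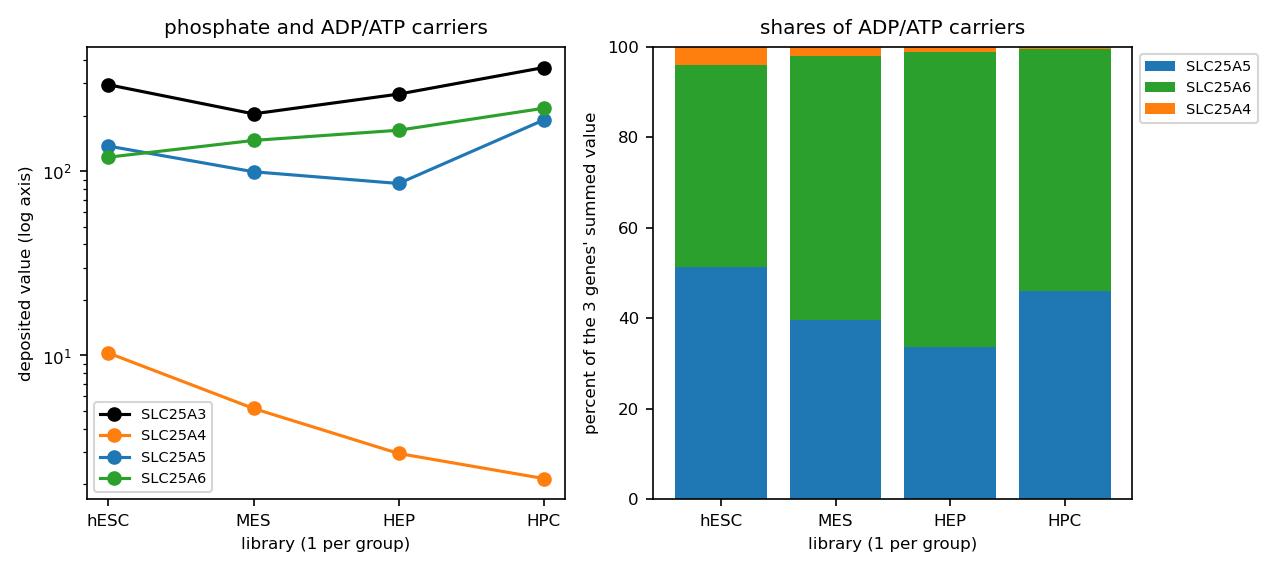
Left, deposited values (log axis) of SLC25A3, SLC25A4, SLC25A5 and SLC25A6 in the 4 libraries. Right, the share of each ADP/ATP carrier gene in the summed value of the 3 genes, where SLC25A4 goes from 3.88% in hESC to 0.523% in HPC; each point or bar is 1 library, with no error available.

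Iron carriers were low in all 4 libraries. Mitoferrin-1, SLC25A37, the iron importer of developing red cells, stood at 1.18, 1.91, 3.24 and 2.43 in library order. Mitoferrin-2, SLC25A28, which serves most other cells, stood at 1.97, 1.66, 1.92 and 2.94. Neither reached 5, so neither could pass the rule. The ratio of SLC25A37 to SLC25A28 within a library was 0.599, 1.15, 1.69 and 0.827 in library order, with SLC25A37 the higher in MES and HEP alone. With the GC trend removed the ratios were 0.568, 1.12, 1.77 and 0.849.

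Of the 9 erythroid markers, 7 were higher and 0 lower by the rule of size in HPC than in HEP, against 3.01% and 3.57% of all genes. From HEP to HPC the gamma globin gene HBG2 went from 4.05 to 1509, ALAS2, the red cell form of the first enzyme of heme synthesis, from 0.73 to 40.3, and the transcription factor GATA1 from 0.61 to 41.5. EPOR, the erythropoietin receptor, went from 5.67 to 3.61 (log2 difference -0.53, not past the rule). Over the same step SLC25A37 went from 3.24 to 2.43 (log2 difference -0.31, and between -0.47 and -0.25 under the other scalings). SLC25A38, the glycine carrier needed for heme synthesis, stood at 17.6, 13.9, 7.62 and 10.9 in library order. Its value in HPC was above that in HEP (0.47) and below that in hESC (-0.64), and neither difference passed the rule under any scaling.

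The glutathione carriers SLC25A39 and SLC25A40 differed widely in level. SLC25A39 stood at 60.0, 47.0, 34.2 and 29.6 in library order, each library below the one before as deposited. Its difference from hESC to HPC was -0.996, just short of the rule, and it passed with the GC trend removed (-1.19) and with a pseudocount of 0.1 (-1.02). Its step from MES to HEP changed sign with median-of-ratios scaling (0.11) and upper quartile scaling (0.07), and that from HEP to HPC with the GC trend removed (0.07). SLC25A40 was listed at 0.84, 0.94, 0.04 and 0.42 and so was below 1 throughout. Exons of SLC25A40 overlap those of DBF4 on the other strand in GENCODE 29, and the strand used in counting is not stated.

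Other genes that supply or handle iron and heme, most of them in the mitochondrion, gave a mixed picture. Of 14 such genes, 3 were higher and 0 lower in HPC than in HEP (median log2 difference 0.62), against 3.01% and 3.57% of all genes, or 8.99% and 10.7% of genes at 5 or more in either library. The higher genes were ALAS2, TMEM14C (85.6 in HPC), which moves heme precursors into the matrix, and TFRC (4.77 to 16.8), the transferrin receptor that brings iron into the cell. From MES to HEP 0 were higher and 2 lower: TFRC (50.0 to 4.77) and the protease subunit CLPX (8.64 to 1.89). Of all genes 3.31% were higher and 13.9% lower over that step, so the lower count was near the background. With the GC trend removed the counts were 3 higher and 0 lower for HEP to HPC, against 2.67% and 3.52% of all genes. They were 1 higher and 1 lower for MES to HEP, against 3.66% and 4.96%. ABCB10, which is known to stabilise mitoferrin-1, was at 3.66, 5.47, 2.24 and 3.39 and had no call as deposited. FECH, which inserts iron to form heme, stood at 4.15, 2.28, 1.96 and 4.59.

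**Figure D3:**
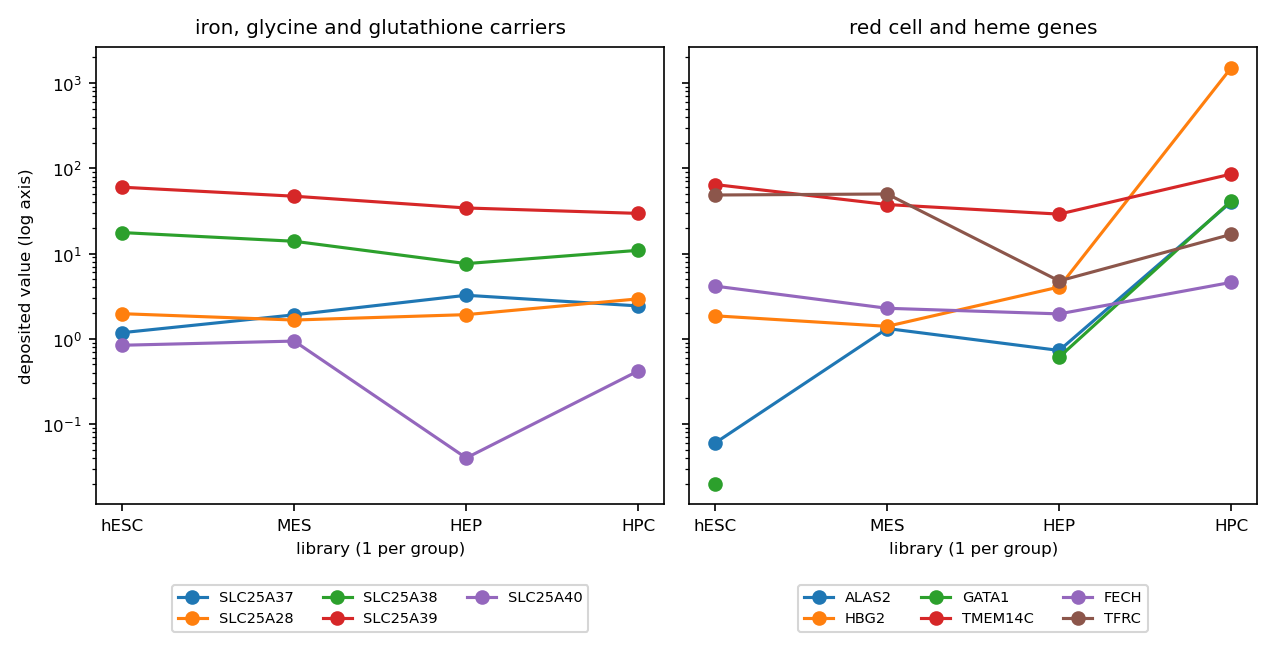
Left, deposited values (log axis) of the iron carriers SLC25A37 and SLC25A28, the glycine carrier SLC25A38 and the glutathione carriers SLC25A39 and SLC25A40. Right, red cell and heme genes on the same axis, with GATA1 listed at 0 in MES and not drawn there. HBG2, ALAS2 and GATA1 are highest in HPC, while SLC25A37 stays between 1.18 and 3.24.

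Among carriers of carboxylic acids, SLC25A1, which exports citrate, stood at 61.8, 70.3, 104 and 46.3 in library order. HEP was the highest library under every scaling. HPC was the lowest as deposited but lay above hESC with median-of-ratios (0.19) and upper quartile scaling (0.15). The step from HEP to HPC passed the rule (-1.15) as deposited and with every scaling except removal of the GC trend (-0.83). SLC25A11, the oxoglutarate and malate carrier of the malate-aspartate shuttle, stood at 30.5, 32.9, 42.6 and 58.9. Its difference from hESC to HPC was 0.93, and it passed with median-of-ratios scaling (1.53), upper quartile scaling (1.48) and a common total (1.19). SLC25A10, the dicarboxylate carrier, stood between 8.86 and 13.2.

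The summed value of the 8 amino acid carriers was 80.5, 87.5, 41.1 and 43.1, lower in HEP and HPC as deposited. SLC25A13, an aspartate and glutamate carrier of the malate-aspartate shuttle, stood at 33.0, 36.3, 13.7 and 16.7 in library order. SLC25A29, which carries basic amino acids, stood at 20.6, 23.0, 10.9 and 8.38, and both genes were thus lower in the last 2 libraries than in the first 2. For SLC25A13 this did not hold with the GC trend removed, where the values were 20.3, 27.0, 22.8 and 21.7. SLC25A44, the carrier of branched-chain amino acids, was highest in MES, at 2.70, 7.01, 4.54 and 2.68. The ornithine carrier SLC25A15 (between 6.24 and 13.7) and the glutamate carrier SLC25A22 (between 3.05 and 7.37) had no call as deposited.

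Carriers of nucleotides and cofactors had varied orders. SLC25A16, linked to coenzyme A, stood at 2.00, 5.31, 2.10 and 1.42, highest in MES as deposited but in HEP with the GC trend removed (4.39). SLC25A32, the folate carrier, stood at 8.11, 8.80, 3.08 and 4.53, lower in the last 2 libraries as deposited and higher there with the GC trend removed (3.85, 5.36, 6.67 and 7.08). SLC25A33, a carrier of pyrimidine nucleotides (between 11.1 and 22.4), SLC25A26, which imports S-adenosylmethionine (between 4.26 and 9.69), and the peroxisomal SLC25A17 (between 9.56 and 14.8) had no call as deposited. SLC25A20, which brings acylcarnitines in for fatty acid oxidation, stood at 2.66, 4.52, 3.66 and 7.52, with HPC the highest. SLC25A46, an outer membrane member tied to the shape of mitochondria, stood at 6.74, 5.11, 1.33 and 2.16, and was nearly level with the GC trend removed (3.00, 2.97, 3.01 and 3.64). The uncoupling-type carriers SLC25A14, SLC25A27 and SLC25A30 stayed between 0.10 and 2.44.

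Differences between libraries were described by size. A gene was counted as higher or lower where log2 of (value + 1) differed by 1 or more in either direction and the higher of the libraries reached 5. On this scale the change of a gene with low values comes out too small. By this rule 13 of the 47 genes were called in any of 4 comparisons, with 17 calls in all, and 34 were called in none. How many of all genes were called in any of the 4 was not counted. These totals thus have no background and do not set the family apart, and shares of all genes are given for each comparison below. The comparison of hESC with HPC shares its libraries with the stepwise ones, so its calls are no further evidence.

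The step from hESC to MES covers exposure to activin A and BMP4. SLC25A44 (log2 difference 1.11) and SLC25A16 (1.07) were higher in MES, and 1 member was lower. These are 4.26% and 2.13% of the family, against 3.79% of all genes higher and 3.7% lower. Among genes at 5 or more in either library, the shares were 8.70% and 4.35% of 23 members against 8.97% and 8.76%. The family was thus close to the background for higher genes. Its lower share is 1 gene, too few to set the family apart. The median difference over the 38 members at 1 or more in any library was -0.06, against -0.12 over 12075 such genes. It was 0.10 with libraries rescaled to a common total and 0.09 with the GC trend removed, so the family's median had no settled sign. With the trend removed 2 members were higher (SLC25A24 and SLC25A44) and 1 lower, against 4.07% and 2.17% of all genes, and among those at the minimum they were 9.52% and 4.76% of 21 members against 10.7% and 5.72%. Of the 4 endoderm markers given above, 3 were higher over the same step, as were 3 of the 4 mesoderm markers. The part of either cell type in the carrier values was not tested. The call of SLC25A44 was kept under all 4 other scalings. SLC25A16 stands next to the minimum of 5 and, of these 4, kept its call only with a common total, although its difference stayed between 1.06 and 1.22.

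The step from MES to HEP covers exposure to VEGF and bFGF, and held 6 of the 12 lower calls. SLC25A24 (-1.57), SLC25A46 (-1.39), SLC25A13 (-1.34), SLC25A32 (-1.26), SLC25A16 (-1.03) and SLC25A29 (-1.02) were lower in HEP, and 0 were higher. The 6 lower genes are 12.8% of the family, against 13.9% of all genes, and 3.31% of all genes were higher. Among genes at 5 or more in either library, 27.3% of 22 members were lower against 33.9%, and 0 higher against 8.08%. The family was therefore not set apart from other genes by this count. The median difference of the 38 detected members was -0.49, against -0.40 over all detected genes. The split depended on the scaling: it was 1 higher (SLC25A1) and 1 lower (SLC25A24) with median-of-ratios scaling, which raises the log2 ratio of HEP to MES by 0.57 for every gene. The median over all genes at 5 or more in either library then went from -0.39 to 0.26, and the share of all genes called was not counted. SLC25A24 kept its call under every rescaling of whole libraries, but not with the GC trend removed.

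The same step followed the GC content of transcripts. Of the 6 lower genes, 5 have transcripts of low GC content, from 37.3% (SLC25A46) to 44.6% (SLC25A13), and 1, SLC25A29, has 65.9%. Across the 24 members at 5 or more in any library, Spearman's rho of the difference with GC content was 0.56, and it was 0.69 across 8141 genes at that level. Both describe these libraries, in which genes share 1 library's processing, and genes are not independent replicates. With this trend divided out of each library, 1 member was higher, SLC25A17 (1.26), and 1 was lower, SLC25A29 (-1.50), against 3.66% and 4.96% of all genes, and among those at the minimum 5.26% of 19 members each way against 9.49% and 12.9%. The differences of SLC25A24 (0.25), SLC25A32 (0.27), SLC25A16 (0.31) and SLC25A46 (0.01) then changed sign, and that of SLC25A13 was -0.24. The median was 0.02 over the 38 detected members, against -0.095 over all detected genes. Over the 19 members at the minimum it was -0.24, against -0.06 over all such genes. After removal the rho across the same 24 members was -0.60, and 0.15 across all genes, so that the removal turned the relation round among the carriers and did not level it. SLC25A29 is the member that was lower both as deposited and with the trend removed, but its difference was short of the rule with the 3 other scalings (from -0.79 to -0.48).

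**Figure D4:**
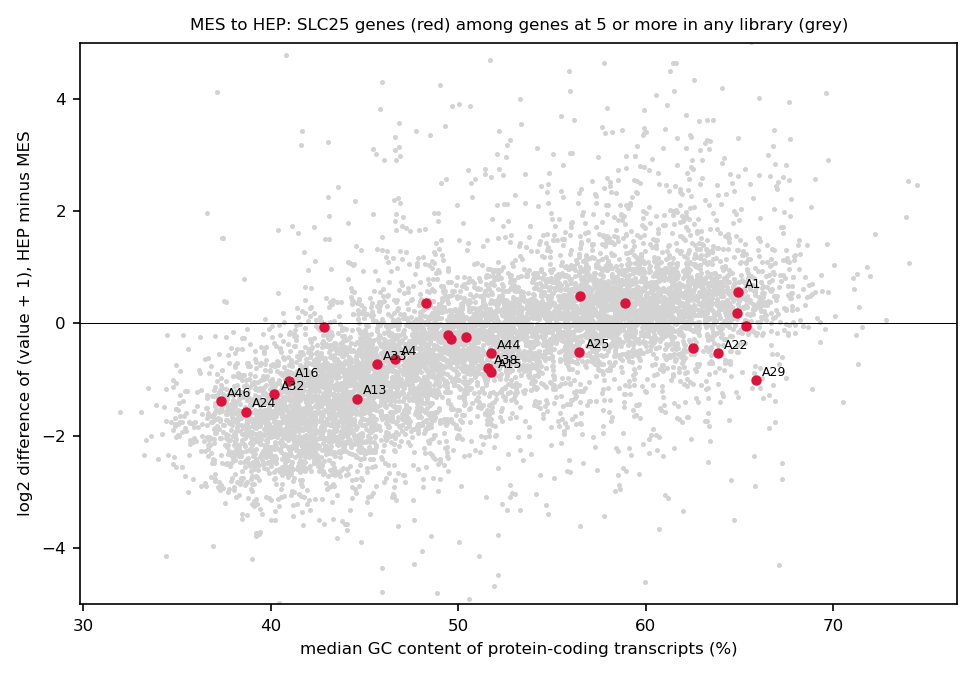
Log2 difference of (value + 1) from MES to HEP against the median GC content of each gene's protein-coding transcripts. Red points are the 24 SLC25 genes and grey points the 8141 genes at 5 or more in any library, of which 19 lie outside the axis. SLC25A46, SLC25A24, SLC25A32 and SLC25A16 sit at the low end of GC content among genes that are also lower in HEP, and SLC25A29 lies at -1.02 with a GC content of 65.9%.

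The step from HEP to HPC adds SB-431542 to VEGF and bFGF. In HPC 2 members were higher, SLC25A5 (1.13) among them, and 1 was lower, SLC25A1 (-1.15). That is 4.26% and 2.13% of the family, against 3.01% and 3.57% of all genes, and among genes at 5 or more in either library 11.1% and 5.56% of 18 members against 8.99% and 10.7%. The median difference over the 38 detected members was 0.24, against 0.07 over all detected genes. It was 0.06 with libraries rescaled to a common total and 0.07 with the GC trend removed, where the background medians were -0.07 and 0.02. As deposited, 25 members had a difference above 0 and 12 below, but 20 and 17 with either of those scalings. The numbers were 24 and 13 with median-of-ratios and 25 and 12 with upper quartile scaling. Signs were not counted over all genes. SLC25A5 kept its call with median-of-ratios scaling, upper quartile scaling and the GC trend removed, and lost it with a common total (0.94). With the GC trend removed 2 members were higher and 0 lower, against 2.67% and 3.52% of all genes, and 7.27% and 9.58% of those at the minimum, which 20 members reached.

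Over the whole course, from hESC to HPC, SLC25A20 was higher (1.22), and SLC25A4 (-1.84), SLC25A46 (-1.29), SLC25A29 (-1.20) and SLC25A25 (-1.004) were lower. The shares of the family were 2.13% higher and 8.51% lower, against 4.66% and 15.8% of all genes, and among genes at 5 or more in either library 4.55% and 18.2% of 22 members against 11.1% and 37.4%. SLC25A20 and SLC25A4 kept these calls under all 4 other scalings. SLC25A46 changed sign with the GC trend removed (0.21), where SLC25A24 was higher (1.29) and SLC25A22 (-1.08) and SLC25A39 (-1.19) were lower. The split was 4 higher and 1 lower with median-of-ratios scaling, which raises the ratio of HPC to hESC by 0.62 on the log2 scale. That shift moves every gene, and the median over all genes at 5 or more in either library went from -0.57 to 0.13. The share of all genes called was not counted with that scaling. With the GC trend removed 2 members were higher and 5 lower, against 6.34% and 6.63% of all genes. Among those at the minimum the shares were 9.52% and 23.8% of 21 members against 16.2% and 17%.

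**Figure D5:**
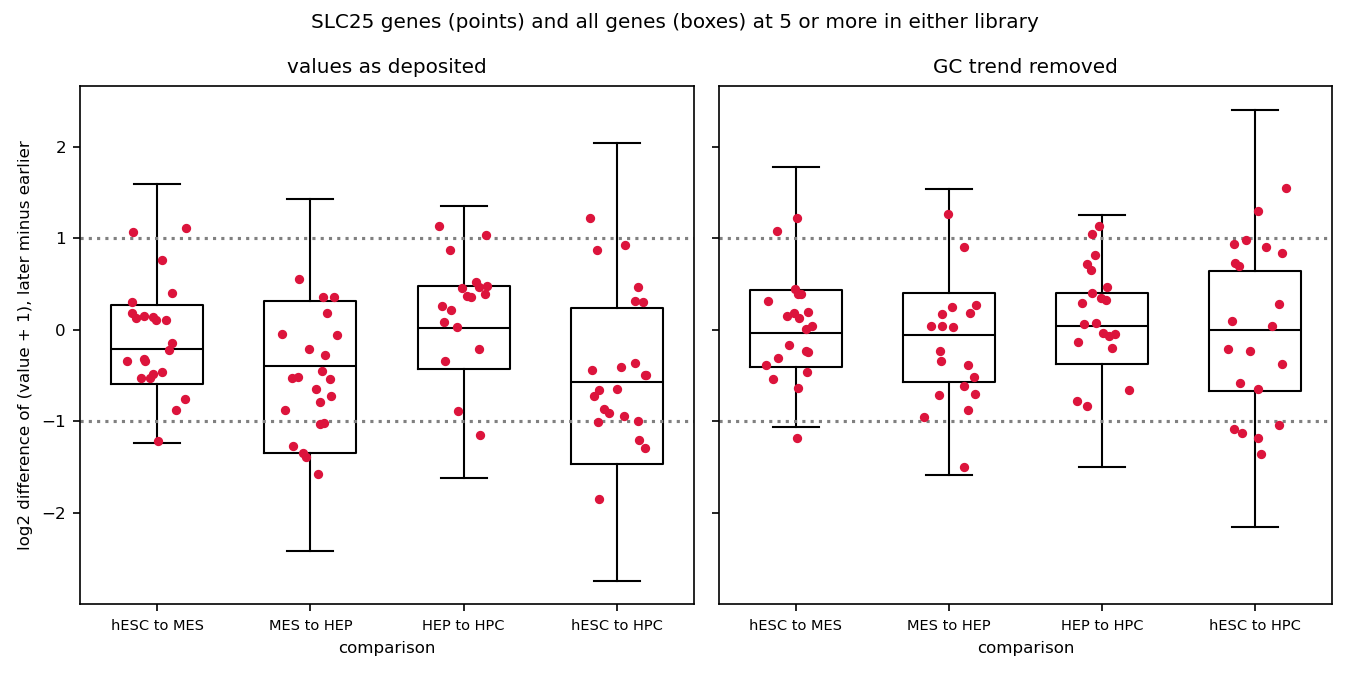
Log2 differences of (value + 1) in the 4 comparisons, as deposited (left) and with the GC trend removed (right). Boxes show the median, quartiles and 5th to 95th percentile of all genes at 5 or more in either library, red points the SLC25 genes among them, and dotted lines a difference of 1. From MES to HEP the median of the red points is -0.53 on the left and -0.24 on the right, and that of the box -0.39 and -0.06.

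Of the 38 detected members, the numbers with their highest value in each library were 14, 11, 2 and 11 in library order, the 2 of HEP being SLC25A1 and SLC25A37. The shares were 36.8%, 28.9%, 5.26% and 28.9%, against 43.6%, 23.9%, 16.6% and 15.9% of all detected genes. HEP held the lowest value of 17 members (44.7%, against 38.8% of all detected genes). With the GC trend removed, 7 members were highest in HEP (18.4%, against 18.9% of all detected genes) and 8 were lowest there (21.1% against 25.5%), so the low number peaking in HEP was not seen then.

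Genes that work beside the carriers were read from chosen lists. Of 5 family members under other symbols, 1 was called: MTCH1, an outer membrane insertase, was lower in HPC than in HEP (145 to 64.2), with its highest value in HEP as for SLC25A1, and was not called with the GC trend removed. Over that step 3.57% of all genes, and 10.7% of those at 5 or more, were lower. UCP2, the uncoupling protein of blood cells among other tissues, stood at 1.57, 3.30, 2.77 and 4.24. Of 13 genes of the route by which carriers are imported, through the TOM complex and the small TIM chaperones to the TIM22 complex, 3 were lower in HEP than in MES and 0 higher, against 13.9% and 3.31% of all genes, or 33.9% and 8.08% of those at 5 or more in either library. They were TIMM9 (5.22 to 0.99), TOMM20 (52.7 to 14.7) and TOMM70A (16.5 to 5.35), the last being the receptor that recognises carriers. With the GC trend removed 0 of the 13 were lower and 2 higher, against 4.96% and 3.66% of all genes, or 12.9% and 9.49% of those at the minimum. TIMM22, the channel itself, stayed between 19.5 and 22.8. Of 10 other inner membrane carriers, 1, SFXN4, was higher in HPC than in HEP (8.73 to 21.7), as it was with the GC trend removed. Over that step 3.01% of all genes, and 8.99% of those at 5 or more, were higher as deposited. MPC1, a subunit of the pyruvate carrier, was listed at 2.94, 3.68, 0.25 and 3.62. MPC2, in the same list, was at 0.22, 0.03, 0 and 0, so the care asked for low values above holds for both. Of 3 porins, VDAC3 was lower in HEP than in MES (66.9 to 28.0), a call made for 13.9% of all genes over that step, and not made for VDAC3 with the GC trend removed.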

How the data were processed

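The authors deposited 1 table per library, with a normalised signal for each gene to 2 decimals. Per the submitters' processing notes the authors used BWA, Bowtie and RSEM with hg19; the sources used here give no versions, roles, annotation or strand, nor whether FPKM or TPM was deposited. Under 1% of values above 0 were whole numbers (0.742% at most), so these are not counts and depth is unknown. Of 17634 rows, 4 that shared 2 date-like names were left out. Reads shared with pseudogenes, and overlapping genes (exons of 21 of the 47 members overlap another gene in GENCODE 29), could not be separated.

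Differences are log2 of (value + 1), with a call at 1 or more in size and 5 or more in the higher library. GC content is a gene's median over its protein-coding GENCODE 29 transcripts. Symbols, or else unique RefSeq synonyms, matched for 98.9% of genes and all 47 members. For the trend, each gene's log2 values were centred on their mean, medians were taken in 50 bins of GC content and averaged over 5 neighbouring bins, and the result was divided out. That annotation is on GRCh38, so no coordinates are given but those of RefSeq's promoters. Size factors for median-of-ratios came from genes above 0 in all libraries. Alternatives were pseudocounts of 0.1 and 5, no minimum, a minimum of 20, a fold of 4 and 4 scalings. Python 3.11.15, pandas 2.3.3, numpy 2.4.6, matplotlib 3.10.9 and Biopython 1.88 were used.

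Named genes were members called in any comparison and the listed iron, glycine, glutathione, ADP/ATP and phosphate carriers, with other members given by ranges. Of the called members, 1 is not reported here by name and enters only counts, sums and medians. SLC25A11 was given in full after its values were seen. Members, lists and alternatives were chosen with earlier results of these data known.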

Additional observations from a re-analysis of the deposited data

How the results depend on the processing

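No paired analysis was possible because each group is 1 library. Each of the 17 calls was kept with a pseudocount of 0.1 and with no minimum, but neither setting could lose a call. Of the 17, 5 were kept with a pseudocount of 5 and 6 with a minimum of 20. Median-of-ratios and upper quartile scaling each kept 8, a common total 11 and removal of the GC trend 9. With a fold of 4, 0 members were called in either direction in any comparison. Counts of members past the rule are given as higher and lower, in the order hESC to MES, MES to HEP, HEP to HPC and hESC to HPC, and were 2 and 1, 0 and 6, 2 and 1, and 1 and 4 as deposited. With a pseudocount of 5 they were 0 and 0, 0 and 2, 1 and 1, and 0 and 1, and with a minimum of 20 they were 0 and 0, 0 and 3, 1 and 1, and 0 and 1. With no minimum they were 2 and 3, 0 and 8, 3 and 1, and 2 and 6, and with a pseudocount of 0.1 they were 2 and 1, 0 and 6, 3 and 2, and 1 and 6. With median-of-ratios scaling they were 1 and 1, 1 and 1, 2 and 1, and 4 and 1, the same as with upper quartile scaling. With a common total they were 2 and 1, 0 and 4, 0 and 2, and 3 and 2. Removal of the GC trend gave 2 and 1, 1 and 1, 2 and 0, and 2 and 5. Shares of all genes were counted only as deposited and with the GC trend removed, so the other counts have no background beside them.

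The median difference of detected members changed sign from hESC to MES with a common total (0.10) and the GC trend removed (0.0886), from MES to HEP with the GC trend removed (0.0203), and from hESC to HPC with median-of-ratios scaling (0.11), upper quartile scaling (0.0689) and the GC trend removed (0.22). The GC trend removal reversed SLC25A16 (0.31), SLC25A24 (0.25), SLC25A32 (0.27) and SLC25A46 (0.0136) from MES to HEP and SLC25A46 (0.21) from hESC to HPC, because it raises genes of low GC content in HEP and HPC. The causes of the other changes were not tested. Depth is unknown, so no counting error can be given for low values.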

Other observations

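Some members had a wide range at levels below the minimum of 5, and were picked out after their values were seen. SLC25A21, a carrier of oxodicarboxylates used in the breakdown of lysine, stood at 3.76, 0.94, 0.15 and 0.13 in library order. Its log2 difference from hESC to HPC was -2.07 as deposited and between -1.89 and -1.34 under the other scalings. Exons of SLC25A21 overlap PAX9 and SLC25A21-AS1 on the other strand in GENCODE 29. SLC25A27, an uncoupling-type carrier known from brain, stood at 1.57, 0.45, 0.18 and 0.10, with MES and HEP in the other order with the GC trend removed (0.05).

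In the other direction SLC25A45 was listed at 0.09, 0.33, 0.60 and 1.77, each library above the one before, with a log2 difference of 1.35 from hESC to HPC. The aspartate and glutamate carrier SLC25A12 stood at 3.54, 1.27, 0.64 and 2.72, lowest in HEP as deposited and in MES with the GC trend removed (0.928). Its ratio to its close relative SLC25A13 was 0.107, 0.035, 0.0466 and 0.163 in library order. With the GC trend removed the ratio was lowest in MES (0.0344) and highest in HPC (0.166) as well, so SLC25A13 held most of the signal of this pair in every library. SLC25A48 was at 1.11 in MES, 0.17 in hESC and listed at 0 in HEP and HPC.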
